A study of Mus musculus with 4 samples.

Results

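The BCL2 family was read in splenic B cells with and without NSD1, an enzyme that puts methyl groups on histone H3 at lysine 36. The 10 genes described are Bcl2, Bcl2l1, Mcl1 and Bcl2a1b, which are pro-survival, and Bcl2l11, Bax, Bak1, Bid, Bbc3 and Pmaip1, which are pro-death. They were taken by gene symbol from the 55401 genes listed in the count data. All 10 were found, and 8 of them had enough counts to be tested. Bcl2l1 and Bbc3 did not.

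RNA came from B220+ B cells sorted from mouse spleen, with 2 libraries per genotype. NSD1 B WT cells came from Mb1-Cre+ NSD1+/+ mice, and NSD1 B KO cells from Mb1-Cre+ NSD1 fl/fl mice. Every mouse therefore carried the Cre recombinase, which is driven by the promoter of Mb1 (Cd79a) and is active from the earliest B cell stages. Mice were on a C57BL/6J background, 7 to 9 weeks old and of both sexes, with no label that ties an age or sex to a library. A run of exons of Nsd1 between loxP sites is cut out where Cre is active, so spleen cells outside the B lineage keep the gene. It is not stated whether the 2 libraries of a genotype came from different mice, so p-values measure the spread between these libraries, which may be technical. In bulk RNA of this kind, fewer cells of a type and less RNA per cell cannot be told apart.

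BCL2 family proteins decide whether the outer membrane of the mitochondria stays intact. Pro-survival members (BCL2, MCL1, A1 and BCL-XL, the product of Bcl2l1) hold the effectors BAX and BAK in check, while BH3-only proteins such as BIM (Bcl2l11), BID, PUMA (Bbc3) and NOXA (Pmaip1) are sensors of stress that neutralize the pro-survival proteins or activate the effectors. B cells depend on this balance for their removal in the bone marrow, their life span in the spleen and their selection in germinal centres.

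The libraries held 6952351 and 7134170 counts on genes in NSD1 B WT and 7566834 and 6769118 in NSD1 B KO. The targeted gene Nsd1 had 497 and 480 counts in NSD1 B WT, against 284 and 280 in NSD1 B KO, a log2 fold change of -0.74 ± 0.11 (SE; edgeR adjusted p = 8.08e-08). These counts run over the whole gene, so they do not read the deleted exons alone. All 6 markers of B cells were present, with a summed level of 12500 to 12700 CPM (counts scaled by library depth) in NSD1 B WT and 11000 to 12000 in NSD1 B KO. Most of that sum was Cd79b, which was not called, and the other 5 fell, among them Pax5, the factor that keeps B cell identity, from 42.9 to 4.39 CPM, Cd79a from 1990 to 789 CPM and Ms4a1 from 2750 to 1840 CPM. Markers of B cell subsets differed too. The marginal zone sum (3 of 3 lower) was 403 to 405 CPM in NSD1 B WT and 179 to 189 in NSD1 B KO, and the transitional sum (2 of 2 higher) 20.2 to 22.3 and 92.0 to 93.1. Fcer2a, found on follicular cells, went from 134 and 172 counts to none, while Cd5, found on B1 cells, had none in NSD1 B WT and 120 and 103 in NSD1 B KO. Of other cell types, the summed level of 3 erythroid markers was 23.4 to 25.7 CPM in NSD1 B WT and 1250 to 1500 in NSD1 B KO. The sum of 5 myeloid markers, mostly Lyz2, was 4520 to 4630 and 5640 to 5980 CPM, but 3 were called higher and 2 lower. The 2 lower were Itgam, from 76.1 to 43.8 CPM, and S100a8, from 39 and 28 counts to none. The T cell sum went from 23.9 to 26.9 CPM to 49.8 to 52.0, with Cd4 and Cd8a at 0 in every library. For plasmacytoid dendritic cells, which also carry B220, the sum of 3 markers was 63.1 to 68.3 CPM in NSD1 B WT, against 106 in NSD1 B KO, nearly all of it Bst2, with Siglech at 0 in every library. The 2 germinal centre markers (Mki67 and Fas) went from 8.68 to 11.4 CPM to no count. The part of these cell types and subsets in the results on the BCL2 family was not tested.

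The genotypes differed across most of the transcriptome, and every count of genes is to be read against this background. Of 11657 genes tested, 78.2% were called different (edgeR adjusted p below 0.05 and fold change above 1.2), 37.1% higher and 41.1% lower in NSD1 B KO. In 88.1% of the tested genes the libraries of the genotypes did not overlap. Of the 8 tested members, 5 were called (62.5%), 2 of them higher and 3 lower, and the libraries of 6 did not overlap. Bcl2l11 reached the minimum count in NSD1 B KO alone, and Pmaip1 reached it in both libraries of NSD1 B WT but 1 of NSD1 B KO, so that the filter kept these genes for the genotype in which they were high. The members' median log2 fold change was -0.07, and that of all tested genes was -0.10. With the dependence on gene length and GC content taken out, these medians were 0.17 and 0.10.

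**Figure D1:**
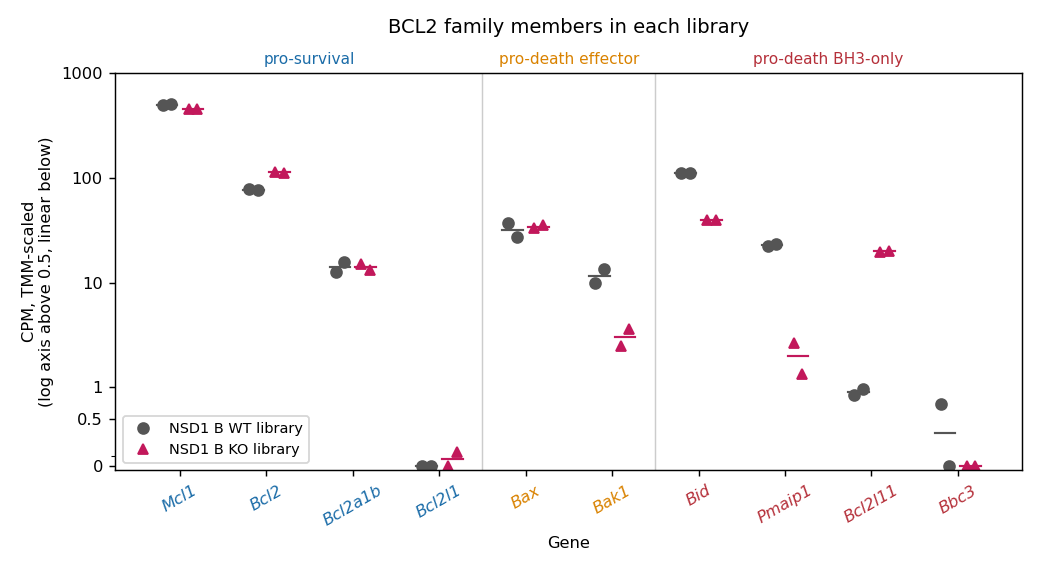
Level of each BCL2 family member in the 4 libraries, in CPM scaled by the trimmed mean of M values (TMM), on an axis that is logarithmic above 0.5 and linear below. Circles are NSD1 B WT libraries, triangles NSD1 B KO libraries and bars the mean of 2 libraries. Bcl2l11 rose from 0.899 to 19.8 CPM, while Bid, Pmaip1 and Bak1 fell, and Bcl2l1 and Bbc3 sat at or near 0.

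Coding sequences are shown for the A1 genes, since they share long stretches of sequence. A1 is encoded in the mouse by nearly identical genes on chromosome 9, of which Bcl2a1b is the member and Bcl2a1a and Bcl2a1d are its copies. Over 519 coding bases, Bcl2a1b differed from Bcl2a1a at 11 positions (97.9% identity) and from Bcl2a1d at 6 (98.8%). The first 120 coding bases (mm10, GENCODE M21) are given with the 7 positions at which the copies differ in capitals. They lie at chr9:88957051-88957170 on the plus strand for Bcl2a1a, at chr9:89199360-89199479 on the plus strand for Bcl2a1b and at chr9:88731600-88731719 on the minus strand for Bcl2a1d.
Bcl2a1a: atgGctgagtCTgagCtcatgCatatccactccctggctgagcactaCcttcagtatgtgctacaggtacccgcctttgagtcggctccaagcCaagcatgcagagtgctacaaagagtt
Bcl2a1b: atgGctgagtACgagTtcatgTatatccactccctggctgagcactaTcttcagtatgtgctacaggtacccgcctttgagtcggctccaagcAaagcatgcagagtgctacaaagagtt
Bcl2a1d: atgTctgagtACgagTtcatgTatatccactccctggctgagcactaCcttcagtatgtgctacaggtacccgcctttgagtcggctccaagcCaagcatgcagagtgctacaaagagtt

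Promoters are shown for the member that rose the most and for 2 that fell, as the 250 bases before the RefSeq start site (GRCm38.p6), for Bcl2l11 the more upstream of 2. They lie at chr2:128125788-128126037 on the plus strand for Bcl2l11, at chr6:120916825-120917074 on the minus strand for Bid and at chr17:27028628-27028877 on the minus strand for Bak1. Capitals mark matches, on either strand, to the GC box GGGCGG, the CCAAT box CCAAT, the E-box CACGTG, the forkhead motif GTAAACA and the TATA box TATAAA.
Bcl2l11: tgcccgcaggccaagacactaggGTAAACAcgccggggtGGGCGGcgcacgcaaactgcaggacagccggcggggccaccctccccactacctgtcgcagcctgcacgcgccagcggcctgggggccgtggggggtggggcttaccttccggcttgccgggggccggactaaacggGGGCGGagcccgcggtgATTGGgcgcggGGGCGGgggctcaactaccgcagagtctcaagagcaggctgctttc
Bid: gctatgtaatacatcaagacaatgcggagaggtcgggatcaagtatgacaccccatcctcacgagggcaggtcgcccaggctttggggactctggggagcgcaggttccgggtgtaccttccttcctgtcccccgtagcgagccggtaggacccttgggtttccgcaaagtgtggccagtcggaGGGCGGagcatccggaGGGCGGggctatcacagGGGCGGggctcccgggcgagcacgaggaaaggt
Bak1: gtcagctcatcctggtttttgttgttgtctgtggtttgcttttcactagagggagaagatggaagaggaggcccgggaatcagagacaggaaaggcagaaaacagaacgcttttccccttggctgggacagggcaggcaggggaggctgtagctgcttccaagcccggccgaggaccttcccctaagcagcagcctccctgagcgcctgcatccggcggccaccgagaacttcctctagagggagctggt
The Bcl2l11 promoter shown held 3 GC boxes, 1 CCAAT box and 1 forkhead match, and its GC content was 72.0%. The other Bcl2l11 promoter, at chr2:128127325-128127574, held 2 GC boxes, 2 CCAAT boxes and no forkhead match. The promoter of Bid held 3 GC boxes at a GC content of 63.6%, and that of Bak1 none of the 5 motifs at 58.4%. Of 32851 promoters of the same length, 32.7% held a GC box, 33.8% a CCAAT box and 3.2% a forkhead match, and the median GC content was 52.4%. These matches describe letters and not bound sites.

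Among the pro-survival members only Bcl2 was called. Bcl2, the founding member of the family, had 554 and 559 counts in NSD1 B WT, against 823 and 746 in NSD1 B KO. Its level was 77.5 and 76.5 CPM in NSD1 B WT and 114 and 111 CPM in NSD1 B KO, so both NSD1 B KO libraries were above both NSD1 B WT libraries. Bcl2 rose by a log2 fold change of 0.55 ± 0.09 (SE), or 1.46-fold (edgeR adjusted p = 9.18e-07), a change that 70.8% of tested genes matched or exceeded in size. The gene lies on chromosome 1 (mm10, 106538178 to 106714274, minus strand) and shares 558 bases of exon with the antisense gene D630008O14Rik, which had 11 and 2 counts in NSD1 B WT, against 0 and 1 in NSD1 B KO.

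Mcl1, a short-lived protein that B cells need to stay alive, was by far the most abundant member. It had 3539 and 3652 counts, or 495 and 500 CPM, in NSD1 B WT and 3230 and 3038 counts, or 449 and 452 CPM, in NSD1 B KO. The libraries did not overlap, yet the log2 fold change of -0.14 ± 0.08 (SE) missed the threshold (edgeR adjusted p = 0.0811). Its direction turned to 0.14 when the dependence of fold change on gene length and GC content was taken out, a step that moved the median of all tested genes from -0.10 to 0.10.

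Bcl2a1b, one of the A1 genes, had 90 and 114 counts in NSD1 B WT, against 107 and 89 in NSD1 B KO. The levels were 14.1 ± 2.12 CPM and 14 ± 1.16 CPM (SD, n = 2), the libraries overlapped, and the log2 fold change was 0.00 ± 0.21 (SE; edgeR adjusted p = 0.987). Its copies differed between the genotypes. Bcl2a1a had 7 and 10 counts in NSD1 B WT, against 86 and 71 in NSD1 B KO, and rose by 3.24 ± 0.37 on the log2 scale (edgeR adjusted p = 5.76e-11). Bcl2a1d, the copy with most counts, had 284 and 333 counts in NSD1 B WT, against 597 and 458 in NSD1 B KO, and rose by 0.83 ± 0.11 (edgeR adjusted p = 9.45e-09). With the 3 copies summed before the fit, A1 rose by 0.80 (edgeR adjusted p = 2.81e-09). Of the stretches of 150 bases in Bcl2a1b transcripts, 41.9% occur in another gene, counting Bcl2a1a, Bcl2a1d and Gm29094, which overlaps 401 bases of its exons on the same strand and had no count. The split of reads within these stretches is uncertain.

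Bcl2l1, which encodes BCL-XL, had no count in 3 libraries and 1 count in the second NSD1 B KO library. A count of 0 allows up to 0.42 and 0.41 CPM in the NSD1 B WT libraries and 0.417 CPM in the first NSD1 B KO library, covering counting error only. A difference in Bcl2l1 was not detectable at this depth, and these limits hold for reads as they were counted, by a procedure that is not stated.

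Of the effectors, Bak1 fell and Bax was not called. Bax had 264 and 199 counts in NSD1 B WT, against 238 in each NSD1 B KO library, or 32.1 ± 6.88 and 34.2 ± 1.63 CPM (SD, n = 2). The NSD1 B KO libraries lay between the NSD1 B WT libraries, and the log2 fold change was 0.09 ± 0.15 (SE; edgeR adjusted p = 0.558). This value rested on single libraries and on the fit. It was -0.09 without the second NSD1 B WT library, 0.36 without the first, and 0.49 once the length and GC dependence was taken out, where Bax was called higher (edgeR adjusted p = 0.00158).

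Bak1, the other pore-forming effector, fell. It had 71 and 98 counts in NSD1 B WT, against 18 and 24 in NSD1 B KO, or 9.94 and 13.4 CPM against 2.50 and 3.57 CPM. The libraries did not overlap, and the log2 fold change was -1.94 ± 0.31 (SE), a 3.85-fold lower level (edgeR adjusted p = 1.97e-07). Of tested genes, 36.3% changed at least as much. Bak1 shares 437 bases of exon, 18.2% of its exon length, with Ggnbp1 on the opposite strand, which had 0 and 2 counts in NSD1 B WT, against 21 and 24 in NSD1 B KO. The strand setting of the counting is not given in the sources used here, so reads in the shared stretch cannot be assigned to 1 gene with certainty.

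The BH3-only members moved in both directions. Bcl2l11, which encodes BIM, the BH3-only protein that removes self-reactive B cells, had 6 and 7 counts in NSD1 B WT, against 140 and 136 in NSD1 B KO. Its level was 0.840 and 0.958 CPM in NSD1 B WT and 19.5 and 20.2 CPM in NSD1 B KO, with a wide gap between the genotypes. The log2 fold change was 4.44 ± 0.34 (SE), or 21.6-fold (edgeR adjusted p = 1.5e-16). A change of this size or larger was seen in 23.5% of tested genes. None of its stretches of 150 bases occurs in another gene, and it spans chromosome 2 from 128126038 to 128162547 on the plus strand.

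Bid, which is cut by caspases and thereby links death receptors to the mitochondria, had 790 and 819 counts in NSD1 B WT, against 285 and 264 in NSD1 B KO. This was 111 and 112 CPM against 39.6 and 39.2 CPM, and the 2 libraries of each genotype were nearly equal. Bid fell by 1.5 ± 0.10 on the log2 scale, a 2.82-fold lower level (edgeR adjusted p = 7.37e-18), and 42.7% of tested genes changed at least as much. It shares 628 bases of exon (17.7%) with Bcl2l13 on the opposite strand. Bcl2l13, a mitochondrial BCL2-like protein, fell as well, from 301 and 308 counts to 95 and 64.

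Pmaip1, which encodes NOXA, a BH3-only protein that binds mainly MCL1 and A1, had 158 and 169 counts in NSD1 B WT, against 19 and 9 in NSD1 B KO. At 22.1 and 23.1 CPM against 2.64 and 1.34 CPM, the libraries were far apart. The log2 fold change was -3.48 ± 0.28 (SE), an 11.2-fold lower level (edgeR adjusted p = 1.97e-15), and 26.1% of tested genes changed at least as much. Bbc3, which encodes PUMA, had 5 counts in the first NSD1 B WT library and none in the other 3 libraries, too few to test.

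**Figure D2:**
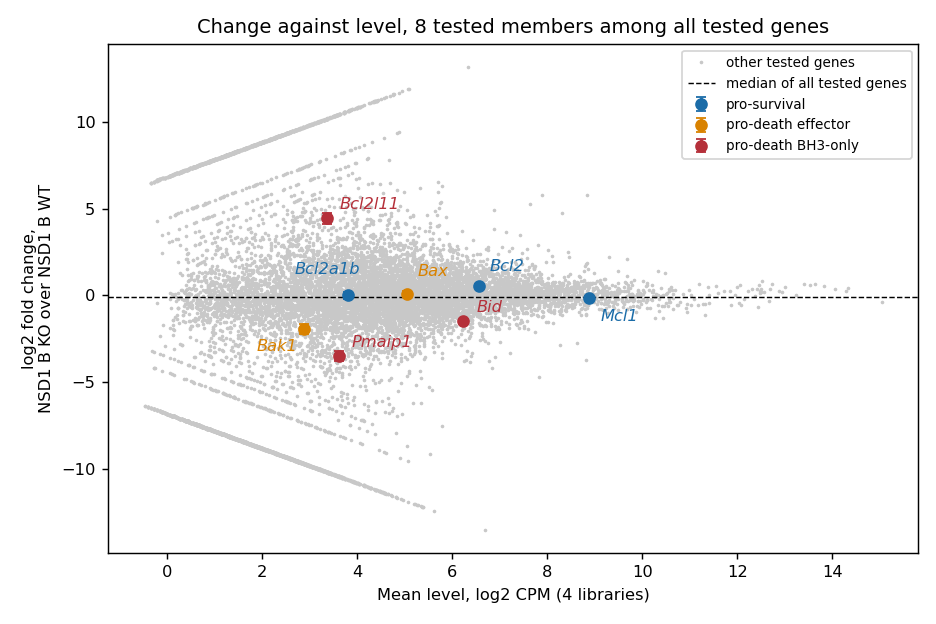
Log2 fold change (NSD1 B KO over NSD1 B WT) of the 11657 tested genes against their mean level in log2 CPM. Grey points are other genes, coloured points the 8 tested members with bars of 1 standard error, and the dashed line the median of all tested genes at -0.10. Bcl2l11 at 4.44 and Pmaip1 at -3.48 lie farthest from the line among the members, and Mcl1, Bax and Bcl2a1b lie near it. The slanted edges are genes with no count in 1 genotype.

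Per unit of length, the order of the members differed between the genotypes. As TPM, which are counts per exon length scaled to the same total in each library, the NSD1 B WT levels were Mcl1 232 ± 1.73, Bid 49.9 ± 0.209, Bax 32.4 ± 7.38, Bcl2a1b 27.4 ± 3.76, Bcl2 13.4 ± 0.312, Pmaip1 13.2 ± 0.236 and Bak1 7.71 ± 1.52 (SD, n = 2). Bcl2l11 stood at 0.178 ± 0.0141 TPM. Bax and Bcl2a1b overlapped in that order, as did Bcl2 and Pmaip1, so that these neighbours did not differ beyond their spread. In NSD1 B KO the levels were Mcl1 191 ± 3.40, Bax 31.4 ± 1.92, Bcl2a1b 24.9 ± 1.72, Bcl2 17.8 ± 0.148, Bid 16.1 ± 0.113, Bcl2l11 3.57 ± 0.145, Bak1 1.83 ± 0.478 and Pmaip1 1.05 ± 0.473 TPM. No neighbours among these 8 overlapped. Bid went from the second place to the fifth, behind Bcl2.

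The 10 members together summed to 379 and 373 TPM in NSD1 B WT and 284 and 290 TPM in NSD1 B KO. Pro-survival genes made up 71.5% and 73.4% of that sum in NSD1 B WT and 81.6% and 80.9% in NSD1 B KO. The BH3-only genes made up 16.8% and 17.0% against 7.3% and 7.1%, mostly through Bid. The effectors overlapped, at 11.7% and 9.7% against 11.1% and 12.1%. Mcl1 alone held 61.4% and 61.8% in NSD1 B WT and 66.1% and 66.6% in NSD1 B KO.

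**Figure D3:**
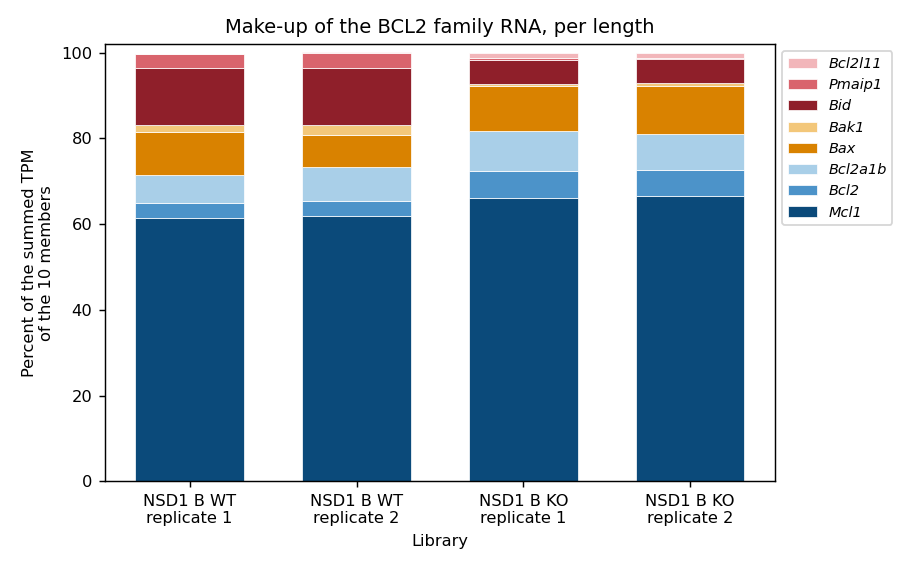
Share of each member in the summed TPM of the 10 members, in percent, as 1 stacked bar per library. Blues are pro-survival members, oranges effectors and reds BH3-only members. Mcl1 takes 61.4% to 66.6% of every bar, and the BH3-only part shrinks from 16.8% and 17.0% under NSD1 B WT to 7.3% and 7.1% under NSD1 B KO.

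Ratios of counts within a library do not depend on how libraries are scaled, and were taken for pairs whose proteins bind each other. With 2 libraries per genotype, an exact permutation test cannot give a two-sided p below 0.333, so values are given without a test. Bcl2 had 92.3 and 79.9 counts for each count of Bcl2l11 in NSD1 B WT, and 5.88 and 5.49 in NSD1 B KO. The genotypes were 15.1-fold apart, a log2 difference of -3.92 beside a pooled SD of 0.12. Mcl1 had 590 and 522 counts for each of Bcl2l11 in NSD1 B WT and 23.1 and 22.3 in NSD1 B KO, and Bcl2a1b 15 and 16.3 against 0.764 and 0.654. All 3 pro-survival genes thus had fewer counts per count of Bcl2l11 in NSD1 B KO. The NSD1 B WT ratios divide by only 6 and 7 counts of Bcl2l11, so their size is imprecise. The pooled SD of 0.12, from 2 libraries per genotype, understates that counting error.

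For Pmaip1, Bak1 and Bax the ratios went the opposite way, and no pair with Bid was taken. Mcl1 had 22.4 and 21.6 counts for each of Pmaip1 in NSD1 B WT and 170 and 338 in NSD1 B KO, a log2 difference of 3.44 (pooled SD 0.50). For each count of Bak1 it had 49.8 and 37.3 against 179 and 127, a difference of 1.81 (pooled SD 0.33). Bcl2 had 2.10 and 2.81 counts for each of Bax in NSD1 B WT and 3.46 and 3.13 in NSD1 B KO, a difference of 0.44 (pooled SD 0.22). That difference was 0.23 without the first NSD1 B WT library and 0.65 without the second. It also depends on gene length and GC content. With that dependence taken out, the log2 fold changes of Bcl2 and Bax were 0.60 and 0.49, against 0.55 and 0.09 in the main fit.

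Summed, the 4 pro-survival members had 3.23 and 3.35 counts for each pro-death count in NSD1 B WT and 5.94 and 5.77 in NSD1 B KO, a 1.78-fold rise in the ratio. Against the BH3-only members alone the sum ratio was 4.36 and 4.35 in NSD1 B WT and 9.37 and 9.47 in NSD1 B KO, 2.16-fold higher. Against Bax and Bak1 it was 12.5 and 14.6 in NSD1 B WT and 16.2 and 14.8 in NSD1 B KO, and the log2 difference of 0.20 shrank to 0.04 when counts were taken per kilobase of exon. Without the first NSD1 B WT library it was 0.09, and without the second 0.31, while leaving out the first NSD1 B KO library gave 0.13. The pro-survival sum was mostly Mcl1. Of the pro-death counts in NSD1 B KO, Bcl2l11 gave 140 and 136, beside 285 and 264 from Bid and 238 from Bax in each library.

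**Figure D4:**
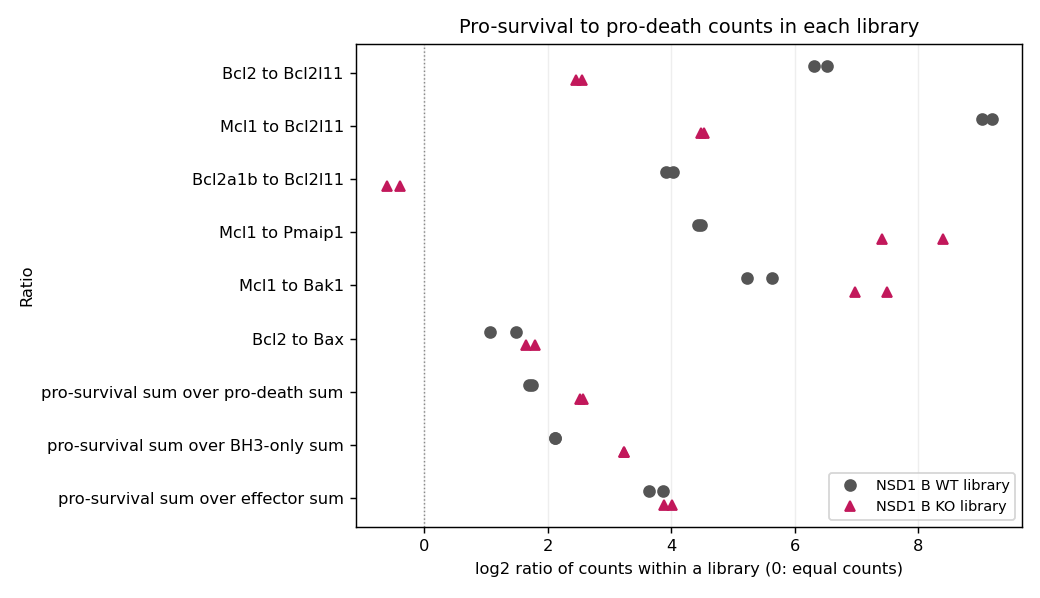
Log2 ratio of counts within each library for 6 pairs of members and 3 sums, where 0 stands for equal counts. Circles are NSD1 B WT libraries and triangles NSD1 B KO libraries. The 3 ratios to Bcl2l11 lie lower in NSD1 B KO, and the ratios to Pmaip1, Bak1 and Bax and the sums lie higher, the effector sum only by 0.20.

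Beyond the members, 15 other BCL2-related genes were read and 9 could be tested. Of these, 5 rose and 3 fell, with a median log2 fold change of 0.83 beside -0.10 for all tested genes. Among them Bmf, Bcl2l2 and Bcl2l12 reached the minimum count in 1 genotype alone. Asking for at least 1 CPM in all 4 libraries left 3 higher calls and a median of 0.34, and testing every gene with a count gave a median of 0.40. Bmf, a BH3-only gene whose product is held at the cytoskeleton, had no count in either NSD1 B WT library and 108 and 112 in NSD1 B KO. Against a floor of 3 counts over the NSD1 B WT group, it was at least 76.1-fold higher, and 7.6% of tested genes had no count in both NSD1 B WT libraries. Bcl2l2, which encodes the pro-survival BCL-W, had 0 and 1 counts in NSD1 B WT, against 49 and 50 in NSD1 B KO, a ratio of 103 (95% counting interval 18 to 4100). Bcl2l12, a relative without a settled role in the pathway, fell from 197 and 161 counts to 3 and 1, a log2 fold change of -6.35 ± 0.40 (SE; edgeR adjusted p = 1.91e-19). Genes of both classes were thus among those that rose. Bcl2l10, Bok, Bik, Bcl2l14 and Bcl2l15 had no count in any library.

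Of the 12 genes reported here that act downstream at or beyond the mitochondria, 11 were tested, 10 rose and 1 fell. Over all tested genes, 37.1% rose and 41.1% fell. A few genes of this list are not reported here, so no excess over these shares can be read from it. Their median log2 fold change was 0.96, a description of these genes alone. Apaf1, the scaffold of the apoptosome, had 30 and 38 counts in NSD1 B WT, against 406 and 358 in NSD1 B KO, and rose by 3.54 ± 0.18 on the log2 scale (edgeR adjusted p = 1.34e-22). Diablo, whose product blocks the inhibitors of caspases, rose from 10 and 7 counts to 77 and 78, by 3.22 ± 0.37 (edgeR adjusted p = 7.08e-11). The gene that fell was Vdac1, a channel of the outer membrane, from 267 and 237 counts to 29 and 39, with a change of -2.83 ± 0.21 (edgeR adjusted p = 6.88e-17). Casp9, the initiator caspase of this pathway, had no count in any library, which allows up to 0.41 to 0.446 CPM in each. How reads were counted is not stated, so this limits counted reads and not expression.

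Of 17 genes that control members through stability or transcription, 16 were tested, 5 rose and 10 fell, with a median log2 fold change of -0.64. Among them Mul1 and Usp9x (27 and 43 counts against 6 and 8) reached the minimum count in NSD1 B WT alone. The filter thus kept them for the genotype in which they were high. Asking for at least 1 CPM in all 4 libraries removed both and gave a median of -0.39. At an adjusted p below 1e-05 with an absolute log2 change above 0.5, 3 rose and 6 fell. Mul1, a ubiquitin ligase of the mitochondria, had 17 and 19 counts in NSD1 B WT, against 1 and 0 in NSD1 B KO, a ratio of NSD1 B WT to NSD1 B KO of 34.7 (95% counting interval 5.84 to 1410). Foxo3, a forkhead factor known to drive Bcl2l11, fell from 126 and 103 counts to 14 and 18, with a log2 fold change of -2.78 ± 0.30 (SE; edgeR adjusted p = 1.46e-11). Btrc, part of a ubiquitin ligase, fell from 538 and 499 counts to 89 and 96, with a change of -2.43 ± 0.14 (edgeR adjusted p = 8.13e-21). The shares called were 88.9% of the tested BCL2-related genes and 93.8% of the regulators, beside 78.2% of all tested genes.

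**Figure D5:**
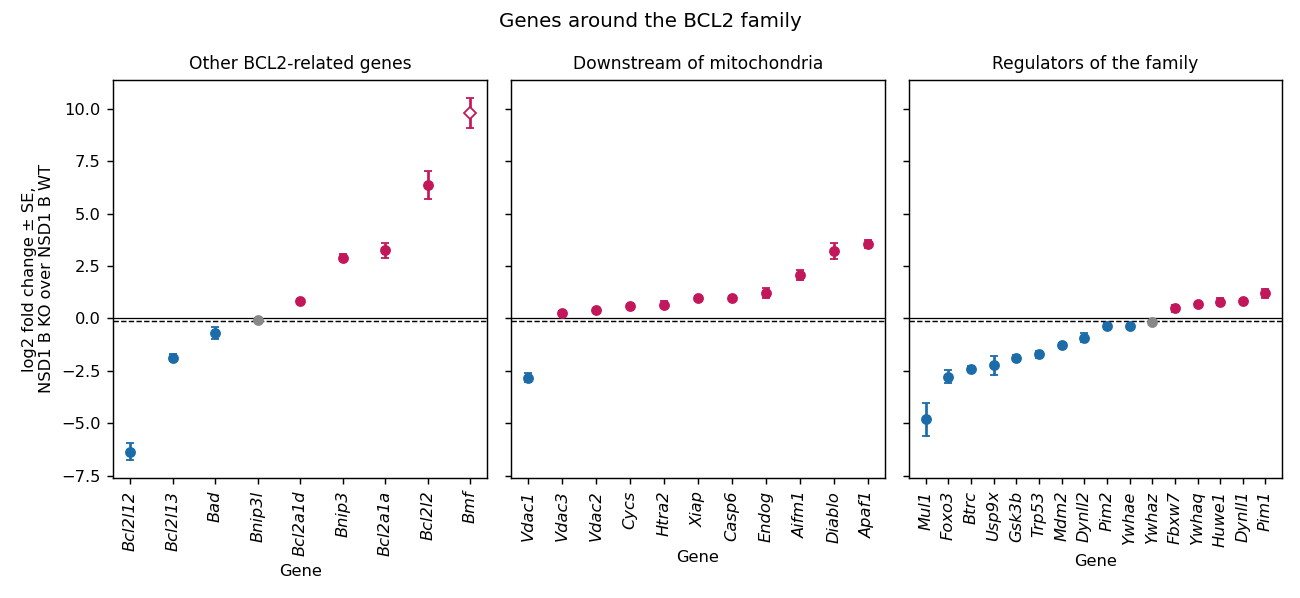
Log2 fold change (NSD1 B KO over NSD1 B WT) with bars of 1 standard error for the tested genes of the 3 lists around the family, ordered by value within each list. Pink points were called higher, blue points lower and grey points not called, the open diamond is Bmf, whose plotted value depends on the fit because it had no count in NSD1 B WT, and the dashed line is the median of all tested genes at -0.10. In the downstream list 10 genes rose and Vdac1 fell, and among the regulators 10 fell and 5 rose.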

How the data were processed

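Counts per gene of 4 RNA-seq libraries were used as deposited by the authors, as raw read counts with no normalization. Per the labels and methods, B220+ splenic B cells were sorted, total RNA was sequenced as paired ends of 150 bases, and reads were aligned to mm10 with Bowtie2. The submitters' processing notes also name Cufflinks. Which program counted the reads, whether it used strand and which annotation it read is not given in the sources used here. Closing lines of each file that name no gene (44.3% to 44.6% of reads with no feature, 2.21% to 2.41% ambiguous and 11.2% to 13.2% not uniquely placed) were left out of library sizes.

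Genes were filtered with filterByExpr (minimum count 10, total 15), scaled by TMM and fitted with edgeR 4.0.16 quasi-likelihood in R 4.3.3 on genotype alone. P-values were adjusted by the Benjamini-Hochberg method over all 11657 tested genes. Genes were called at a fold change above 1.2 with adjusted p below 0.05. DESeq2 1.42.0 and limma 3.58.1 (voom), other scalings and filters, and left-out libraries served as alternatives. The script was tested on simulated counts in which few genes changed, equally in both directions. That test does not show how scaling and calls behave when most genes differ, as they did here. Of 55401 gene identifiers, 99.5% matched GENCODE M21 (mm10), which gave positions and exon lengths for TPM; promoters came from RefSeq. Intervals and floors (3 counts) cover counting error only.

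Members, lists and tests were chosen with earlier results of these data known. All 10 members are named. Of each wider list, the 3 tested genes with the largest absolute log2 fold change past the threshold are named. Genes outside this rule (Bcl2a1a, Bcl2a1d, Bcl2l13, genes overlapping members, Casp9 and those with no count, and the genes of the closing observations) were chosen after their values were seen. A few genes of the downstream and marker lists are not reported here, and the counts and medians of those lists are over the remaining genes, so the downstream share called is not set against the background.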

Additional observations from a re-analysis of the deposited data

How the results depend on the processing

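Bcl2, Bak1, Bcl2l11, Bid and Pmaip1 kept their direction and their call under every alternative that gave a value, with log2 fold changes of 0.47 to 0.60, -2.21 to -1.52, 4.36 to 4.57, -1.58 to -1.21 and -4.07 to -3.08. Asking for at least 1 CPM in all 4 libraries removed Bcl2l11, so that 1 member was called higher. It left 3 higher calls among the BCL2-related genes and moved the list medians to 0.34 (BCL2-related), 0.77 (downstream) and -0.39 (regulators), while testing every gene with a count gave 0.40 for the BCL2-related genes. With the trend of length and GC content removed, Mcl1 read 0.14, Bcl2a1b 0.20, Bax 0.49 and Pim2 0.10, and the medians were 0.17 (members), 1.11 (downstream) and -0.46 (regulators). The replicate block together with that step gave 0.14, 0.19, 0.50, 0.10, 0.17, 1.11 and -0.46, and the replicate block alone changed no call of a member. Same-numbered libraries deviated together only weakly (correlation 0.0645) and no label ties them, so they were not treated as pairs, and the block moved the genes called from 4324 to 4254 higher and from 4795 to 4706 lower. Bcl2a1b read 0.00 with DESeq2 size factors, the DESeq2 Wald test or limma-voom, 0.01 with every counted gene and 0.80 with its copies summed. With stricter limits (absolute log2 change above 0.5, adjusted p below 1e-05) 3 regulators rose and 6 fell. Bad, lower in the main fit (-0.70), lost its call with DESeq2, limma-voom, the length and GC trend removed (-0.25), and without the first NSD1 B WT (-0.36) or the first NSD1 B KO library (-0.45). Vdac3 and Fbxw7 lost their calls without the first NSD1 B KO library (0.21 and 0.24). Vdac3 also lost it with library size alone, upper quartile scaling, the 1 CPM filter and the length and GC trend removed, and Fbxw7 with DESeq2 and limma-voom. Pim2 lost its call with those tools and when any library other than the second NSD1 B KO library was left out, and Ywhaz gained one without the first (-0.32). Leaving out 1 library gave -0.12 to 0.18 for Bcl2a1b, -0.09 to 0.36 for Bax, -0.13 to 0.01 for Bnip3l and -0.73 to -0.48 for the median of the regulators. The cause of these shifts was not tested.

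For the log2 ratios, leaving out 1 library gave -4.70 to -4.52 (Mcl1 to Bcl2l11), 2.95 to 3.94 (Mcl1 to Pmaip1), 0.81 to 0.86 (pro-survival to pro-death sum) and 1.11 to 1.12 (to the BH3-only sum), with 0.23 to 0.65 for Bcl2 to Bax and 0.09 to 0.31 for the effector sum. Summing the A1 copies gave -3.67 for Bcl2a1b to Bcl2l11 and 0.93 and 1.21 for those sums, leaving out Mcl1 gave 1.34, 1.62 and, for the effector sum, 0.71, and counts per kilobase gave 0.72, 1.39 and 0.04. Bcl2l1 and Bbc3 had too few counts to be tested.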

Other observations

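Genes around the family that the comparisons above did not name also differed between the genotypes, and are given as values chosen after they were seen. Trp53, the tumour suppressor p53, which drives Bbc3, Pmaip1 and Bax in damaged cells, fell from 251 and 287 counts in NSD1 B WT to 86 and 71 in NSD1 B KO (log2 fold change -1.72 ± 0.17 SE, edgeR adjusted p = 9.17e-13). Mdm2, which marks p53 for destruction, fell as well, by 1.28 ± 0.12 on the log2 scale (edgeR adjusted p = 1.84e-13). Gsk3b, a kinase that marks MCL1 for destruction, fell from 800 and 894 counts to 242 and 203, with a change of -1.87 ± 0.11 (edgeR adjusted p = 1.07e-20). Among genes that act after the mitochondria, Casp6 rose by 0.99 ± 0.10, Xiap, an inhibitor of caspases, by 0.96 ± 0.09 and Cycs, which encodes cytochrome c, by 0.57 ± 0.08 (edgeR adjusted p = 5.2e-12, 3.15e-13 and 9.35e-09). Bnip3, a BCL2-related gene that responds to low oxygen, rose from 49 and 56 counts to 400 and 357, by 2.90 ± 0.17 (edgeR adjusted p = 8.73e-21). These genes kept direction and call under every alternative run for them.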
